A study of Rattus norvegicus with 6 samples.

Results

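The RNA-seq tables of the INS-1 lines list 1360 gene copies of the spliceosomal small nuclear RNAs (snRNAs) among 32900 features. A copy was taken when its gene name was exactly U1, U2, U4, U5, U6, U11, U12, U4atac or U6atac, with 1 row per gene identifier. There were 919 U6, 220 U1, 115 U4, 86 U2, 13 U5 and 7 U12 copies, and no row carried the names U11, U4atac or U6atac. Upstream exons of Snurf-Snrpn that the authors also call U1 are not snRNAs and were not members.

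INS-1(832/13) is a rat insulinoma β-cell line that secretes insulin; the parental cells here also carried a human insulin transgene with neomycin resistance and a mouse Ins2 transgene tagged with mCherry. All 6 clonal lines carried a CRISPR/Cas9 deletion of the Prader-Willi syndrome (PWS) imprinted domain on the silent maternal allele. Control lines 5-9, 2 and 16 had this deletion alone, and PWS lines 3, 19-1 and 19-4 were also deleted on the active paternal allele. Lines other than 5-9 were derived from 5-9, line 3 had a different proximal breakpoint, and 19-1 and 19-4 are subclones of line 19. Cells were grown in 7.5 mM glucose, and 1 rRNA-depleted library was sequenced per line, so a p-value measures only the spread between these clonal lines.

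Spliceosomal snRNAs are short noncoding RNAs that pair with the pre-mRNA and with each other while introns are removed. U1 recognizes the 5′ splice site, U2 pairs with the branch point, and U5 holds the exon ends, while U4 delivers U6, which then forms the catalytic center with U2. U12 takes the place of U2 in the minor spliceosome, which removes a rare class of introns. Mammalian genomes hold several near-identical genes for most of the major classes, and many pseudogenes, so that a short read can align to several copies.

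The 6 libraries held 26016478 to 36084261 counted reads when a read was counted at each feature it aligned to, and 17530149 to 23022637 when only uniquely assigned reads were counted. The snRNA copies took 0.279% to 0.436% of the first total. The deposited values are counts divided by a size factor per library and are called normalized counts below; they are not per length, so levels were not compared between classes. The 9 β-cell markers examined were all present, with summed normalized counts of 584267 to 640858 in control and 316535 to 551928 in PWS lines, whereas Sst, Prss1, Amy2a3, Cftr, Cdh5, Ptprc and Dcn were listed at 0 in every line. The acinar, ductal, endothelial, immune and fibroblast markers summed to at most 34.0 normalized counts per cell type in any line. The 4 markers of other islet endocrine cells summed to 2.75 to 19.9 in control and 13.2 to 100.01 in PWS lines, so the groups overlapped, and Gcg alone ranged from 0 to 100.01. The part of the lower β-cell marker sum or of the other endocrine markers in the snRNA values was not tested. Snrpn, an Sm protein gene inside the deleted domain, had 3956, 3149 and 3874 normalized counts in the control lines 5-9, 2 and 16 and 2.04, 0 and 3.64 in PWS lines 3, 19-1 and 19-4, as the labels require.

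No read was counted for 852 of the 1360 copies in any line. At least 1 read was counted for the other 508, and 133 reached a mean of 5 normalized counts over the 6 lines and were tested: 55 of U1, 24 of U2, 6 of U4, 8 of U5, 38 of U6 and 2 of U12. The highest mean among the untested copies was 4.96. Among copies read in 1 group and at 0 in the other, the most reads over 3 lines was 5, so no copy with more reads than that was seen in 1 group alone.

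The share of reads unique to a copy differed by class. Unique reads were 6.94% to 13.0% of the summed U1 counts over the 6 lines, 10.1% to 11.6% for U2, 23.7% to 27.2% for U4, 58.5% to 66.1% for U5, 69.0% to 75.8% for U6 and 4.23% to 7.08% for U12. In these sums a shared read is counted at each copy, so they exceed the number of reads and understate the unique share of reads. Of the 133 tested copies, 51 had under 50% unique reads, compared with 16.3% of all 15579 tested genes. The remaining reads aligned to more than 1 place or overlapped more than 1 feature, and the tables do not tell these apart.

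**Figure D1:**
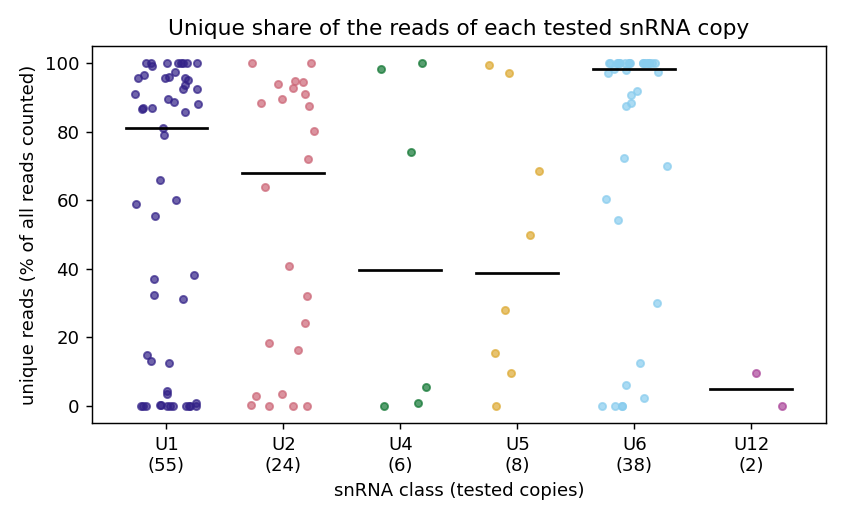
Unique reads as a percentage of all reads counted for each tested snRNA copy, by class, with the number of tested copies under each name and the class median as a black line. Copies lay near both ends of the range in U1, U2, U4, U5 and U6, and the median was 81.1% for U1, 98.1% for U6 and 4.86% for U12.

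Several sets of copies shared reads or were given 1 value. RSEM, which divides shared reads among copies by likelihood, gave the same value in every line to 22 copies in 7 sets, including 6 U2 copies and 2 sets of 4 U1 copies. Members of such a set could still differ in unique reads: in one of them the U1 copy ENSRNOG00000061201 had 3256 unique reads over the 6 lines, against 6, 0 and 538 for ENSRNOG00000051852, ENSRNOG00000059109 and ENSRNOG00000060445. The 2 tested U12 copies, ENSRNOG00000054193 and ENSRNOG00000055594, had non-unique read numbers that matched within 0.154% in every line. Non-unique reads of the U2 copies ENSRNOG00000057077 and ENSRNOG00000061075 matched within 0.385%, and those of the U5 copies ENSRNOG00000057971 and ENSRNOG00000060577 within 1.34%. Those of the U2 copy ENSRNOG00000056256 matched the non-unique reads of the protein-coding gene Rdm1 within 0.789%. Copies are therefore not independent measurements of their class.

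The class totals were compared first. In bulk RNA, fewer cells that make an RNA and less of it per cell cannot be told apart. Summed U1 copies had 25407, 31013 and 48251 normalized counts in the control lines 5-9, 2 and 16 and 54420, 39027 and 38318 in PWS lines 3, 19-1 and 19-4. The groups overlapped, with 34890 ± 11905 (SD, n = 3) in control and 43922 ± 9099 (SD, n = 3) in the PWS lines, and the log2 ratio of these means was 0.33. The sum was lowest in the control lines 5-9 and 2 and highest in PWS line 3 and control line 16.

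Summed U4 copies had 27251, 26551 and 43195 normalized counts in the control lines and 43074, 32079 and 39008 in PWS lines. Control line 16 and PWS line 3 were again the highest, and the log2 ratio was 0.24. Summed U5 copies had 9974, 10227 and 13662 in control and 13546, 11947 and 12074 in PWS lines, with a log2 ratio of 0.15. Summed U12 copies had 2088, 2062 and 2793 in control and 2970, 2267 and 2641 in PWS lines, with a log2 ratio of 0.18. In U1, U4, U5 and U12 alike, control lines 5-9 and 2 were the lowest of the 6 and control line 16 and PWS line 3 the highest, so that the spread within the control group exceeded the difference between group means. RSEM sums had this order in each of these classes. Sums of unique reads had it in U4 and U5 but not in U1 or U12. From unique reads, U1 was highest in PWS line 19-4, at 4998. U12 was highest in control line 2, at 146, and lowest in PWS line 19-1, at 103.

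U2 and U6 did not share this order. Summed U2 copies had 23706, 26692 and 25607 normalized counts in the control and 27713, 20377 and 25715 in PWS lines, and the lowest value was that of PWS line 19-1. Summed U6 copies had 719, 799 and 841 in control and 768, 757 and 777 in PWS lines, and the highest line was 1.17 times the lowest, against 1.36 to 2.14 times in the other 5 classes. Their log2 ratios were -0.04 for U2 and -0.04 for U6.

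**Figure D2:**
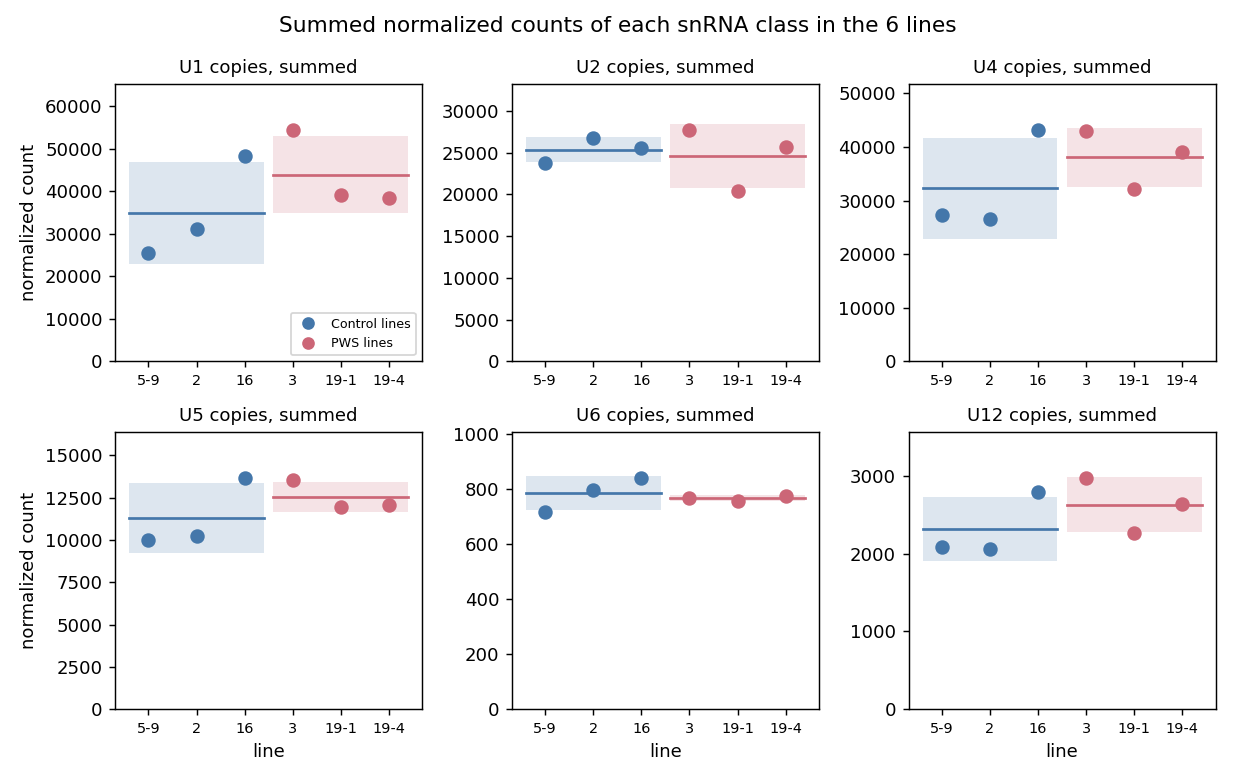
Summed normalized counts (vertical axes, from 0) of all copies of each snRNA class in control lines (blue) and PWS lines (red), with the group mean as a line and 1 SD as a band (n = 3 lines). With each alignment counted, control line 16 and PWS line 3 are the highest for U1, U4, U5 and U12, and the groups overlap in all 6 classes.

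Other small RNA families in the same libraries differed in whether they had this order of lines. Y RNA genes, whose products bind the Ro60 protein, summed to 8636, 8621 and 15207 normalized counts in the control lines 5-9, 2 and 16 and to 16052, 10159 and 12286 in PWS lines 3, 19-1 and 19-4, with the same 2 lowest and 2 highest lines. Vault RNA, a component of the vault particle, had 108, 166 and 211 in control and 230, 153 and 172 in PWS lines, so that line 2 lay above line 19-1. The 7SK, U3, SRP, RNase P and U7 sums did not have this order. In the U8 and 5S rRNA sums the control lines 5-9 and 2 were the lowest, with 1169 and 1141 against 1241 to 1495 for U8 and 1450 and 954 against 1877 to 2814 for 5S rRNA, but PWS line 19-4 was among the highest 2 lines in both. With RSEM, however, both sums had the order of lines seen in U1, U4, U5 and U12. U8 then had 475, 479 and 787 in control and 853, 625 and 779 in PWS lines. For 5S rRNA the RSEM sums were 1841, 911 and 3501 in control and 2651, 2112 and 2488 in PWS lines. U7, which guides histone mRNA 3′ end cleavage, summed to 307, 349 and 337 in control and 299, 288 and 305 in PWS lines, without overlap. The RNA of RNase MRP, which cleaves pre-rRNA, was highest in control line 2, with 186946, against 118884 to 145134 in the other 5 lines. Residual 5.8S rRNA, left after rRNA depletion, summed to 4081, 1360 and 11150 in control and 6736, 5365 and 13092 in PWS lines, so it too was low in the control lines 5-9 and 2, but was highest in PWS line 19-4. The part of rRNA depletion or of small-RNA recovery in the snRNA values was not tested.

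The absolute sums depended on how shared reads were counted. RSEM sums were 3.92 to 4.74 times the all-alignment sums for U1 and 7.64 to 8.88 times for U2, but 0.440 to 0.531 times for U4, 0.485 to 0.560 times for U5 and 0.0381 to 0.0796 times for U6. The log2 ratio of PWS to control for U1 was 0.44 from unique reads and 0.26 from RSEM. The value from unique reads was 0.14 without the U1 copy ENSRNOG00000055311, which was high in PWS line 19-4 alone, and 0.23 without line 19-4, both chosen after seeing the data. For U4 the log2 ratio was 0.14 from unique reads and from RSEM. For U2 it was -0.13 from unique reads and 0.0016 from RSEM, for U5 0.10 and 0.20, and for U6 0.015 and 0.022. For U12 it was 0.19 from RSEM and -0.13 from unique reads, of which there were 103 to 146 normalized counts per line.

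Single copies were then compared between PWS and control lines in a fit over all 15579 tested genes, with limma on log2(normalized count + 1), a scale that understates the change of copies with few reads. Of the 133 tested snRNA copies, 1 U2 copy was lower at an adjusted p under 0.05 and 0 were higher, against 0.25% of all tested genes lower and 0.00642% higher. At an unadjusted p under 0.05, 7 copies were lower and 2 higher, against 5.35% and 6% of all tested genes. Of the 2 higher copies, the U1 copy ENSRNOG00000054947 passed the mean of 5 only through the PWS lines, so nothing is read from that count. DESeq2 called 3 copies lower and 0 higher, all U2, against 0.783% and 0.68% of all tested genes, and edgeR called 1 lower and 0 higher, against 0.199% and 0.00642%. With unique reads limma called 0 of 97 tested copies, against 0.107% of all genes tested there lower and 0.00716% higher, and 2 were lower and 2 higher unadjusted, against 5.29% and 6.22%. With RSEM it called 0 of 56, against 0.0791% and 0.00719%, and 0 were lower and 2 higher unadjusted, against 5.1% and 5.8%. Among these higher copies, the U4 copy ENSRNOG00000056985 (RSEM) reached the mean of 5 through PWS line 19-4. The U1 copy ENSRNOG00000055311 (unique reads) had 2231 in line 19-4 and 0.916 to 20.4 in the other lines, so its difference rested on 1 line. Nothing is therefore read from these counts either. The median log2 fold change was 0.09 over the tested copies and -0.0028 over all tested genes. By class it was 0.31 for U1, -0.25 for U2, 0.29 for U4, 0.15 for U5, -0.02 for U6 and 0.19 for U12. Some tested U1 copies, such as ENSRNOG00000054947, had a control mean under 5 and passed the filter only through the PWS lines. The U1 median and the median over all tested copies are therefore given as a description.

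Control and PWS values did not overlap for 20 of the 133 copies, or 15.0%, against 17.4% of all tested genes. This share varied by class: 9 of 24 U2 copies lay lower in every PWS line than in any control line, against 9.01% of all tested genes, and 0 lay higher. For U1, 6 of 55 copies were higher without overlap, against 8.43% of all tested genes, and 2 were lower. Of those 6 U1 copies, 5 had a control mean of 2.24 to 4.51 and passed the mean of 5 only through the PWS lines, and 2 of the 5, ENSRNOG00000056774 and ENSRNOG00000057334, had the same value in every line and 0 unique reads, so nothing is read from that count. The U2 copies share reads, so their number is not a number of independent changes.

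**Figure D3:**
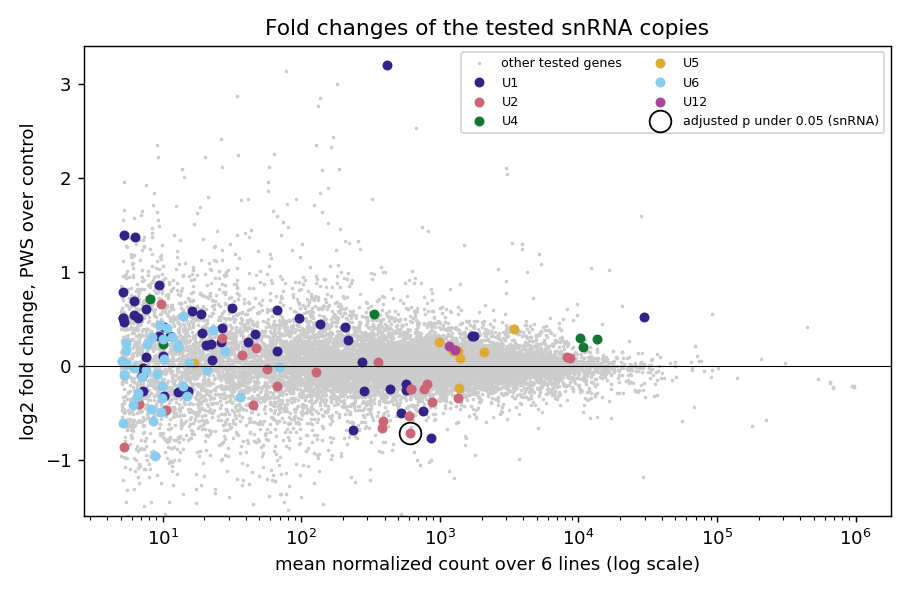
Log2 fold change of PWS over control (vertical axis) against the mean normalized count over the 6 lines (log scale) for the 133 tested snRNA copies, colored by class, over the other tested genes in grey; 64 tested genes lie outside the vertical axis. The ringed U2 copy, at -0.71, is the copy past an adjusted p of 0.05, and the U1 copy at 3.20 owes its value to 1 line.

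The U2 copy that was lower was ENSRNOG00000061528. It had 723, 728 and 839 normalized counts in the control lines 5-9, 2 and 16 and 481, 436 and 478 in PWS lines 3, 19-1 and 19-4. Each PWS line lay below each control line, and the log2 fold change was -0.71 with a standard error of 0.09 (limma, adjusted p = 0.0227). Without any 1 of the 6 lines in turn, it stayed between -0.75 and -0.64, with a limma adjusted p of 0.0553 to 0.135, past 0.05 in 0 of the 6 fits. With lines 19-1 and 19-4, which are subclones of 1 line, averaged into 1 sample, the adjusted p was 0.0948 (limma).

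The difference between the groups lay in the non-unique reads of this copy. Its unique part was 109, 97.3 and 95.5 normalized counts in the control and 104, 76.5 and 118 in PWS lines, so the groups overlapped. Its non-unique part was 613, 631 and 744 in control and 377, 360 and 360 in PWS lines, without overlap. With unique reads alone, the log2 fold change was -0.03 with a standard error of 0.19 (limma, adjusted p = 0.966). RSEM gave it the value shared by 6 U2 copies and a log2 fold change of -0.11 with a standard error of 0.17 (limma, adjusted p = 0.861). Summed over those 6 copies, the all-alignment counts were 5016, 6184 and 4802 in control and 4253, 3481 and 3999 in PWS lines, without overlap. RSEM gave each of the 6 copies 10597, 13805 and 14612 in control and 14482, 9643 and 12287 in PWS lines, with overlap.

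A further 4 U2 copies had an unadjusted p under 0.05 and did not pass the adjusted threshold in limma. ENSRNOG00000061106 had 437, 467 and 508 normalized counts in the control and 345, 237 and 317 in the PWS lines, and its log2 fold change was -0.67. ENSRNOG00000057887 had 434, 460 and 503 in control and 338, 262 and 332 in the PWS lines, and its log2 fold change was -0.59. These are the other U2 copies that DESeq2 called, with adjusted p of 0.0130 and 0.0142, where limma gave 0.258 and 0.250. ENSRNOG00000057955 had 641, 886 and 628 in control and 548, 453 and 467 in the PWS lines, and its log2 fold change was -0.54. ENSRNOG00000061083 had 1525, 1675 and 1376 in control and 1351, 1079 and 1171 in the PWS lines, and its log2 fold change was -0.35.

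In these 4 copies too, the non-unique part did not overlap between the groups, while the unique part differed less. The non-unique part of ENSRNOG00000061106 was 177, 204 and 254 normalized counts in the control and 80.7, 63.4 and 58.2 in PWS lines, a log2 ratio of group means of -1.65. Its unique part was 260, 263 and 255 in control and 264, 173 and 259 in PWS lines, a log2 ratio of -0.16. For ENSRNOG00000057887 the log2 ratio was -0.72 in the non-unique and -0.02 in the unique part, for ENSRNOG00000057955 -0.67 and -0.21, and for ENSRNOG00000061083 -0.39 and -0.25. These copies and ENSRNOG00000061528 were chosen by the p of their total count, so a difference in at least 1 part followed from that choice. The values are given as a description, and the difference between the 2 parts was not tested.

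**Figure D4:**
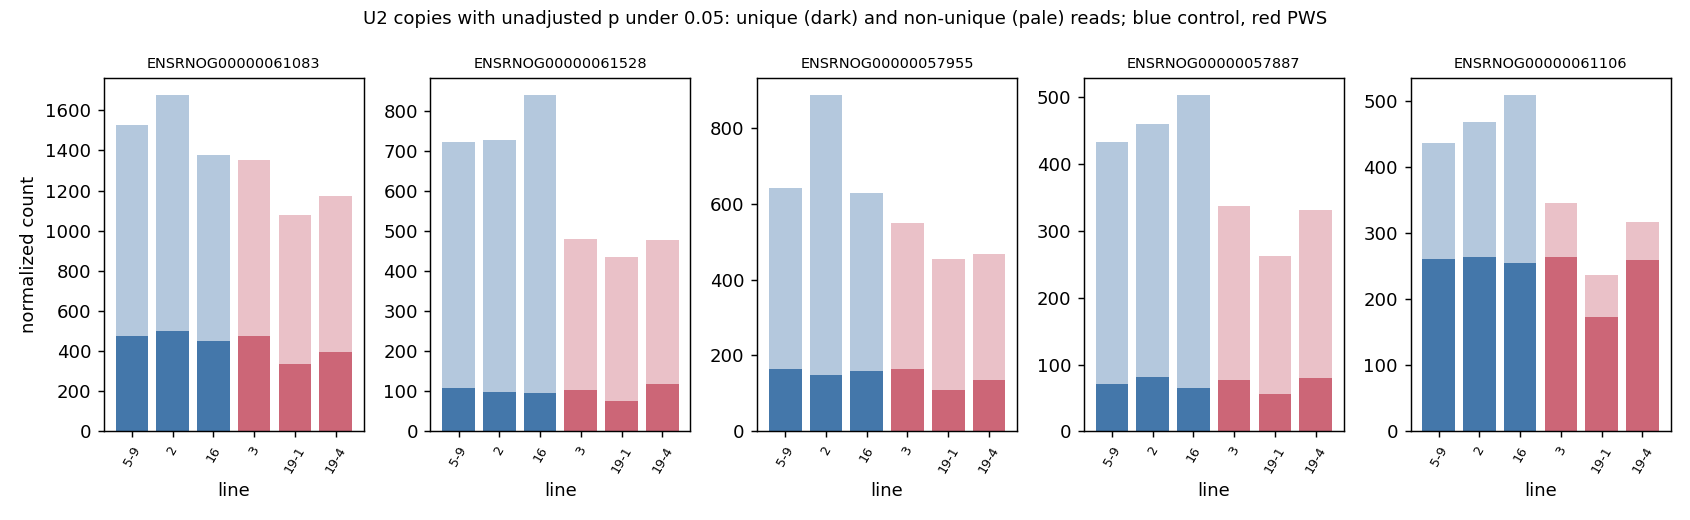
Normalized counts (vertical axes, from 0) of the 5 U2 copies with an unadjusted p under 0.05 in each line, split into unique reads (dark) and non-unique reads (pale), with control lines in blue and PWS lines in red. In each panel the pale part is smaller in all PWS lines than in all control lines, as in ENSRNOG00000061528 with 613 to 744 against 360 to 377.

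The U2 copies with the highest all-alignment counts did not share this difference. ENSRNOG00000054184 had 7773, 8740 and 8949 normalized counts in the control and 10271, 7371 and 9513 in the PWS lines, and the log2 fold change was 0.08 with a standard error of 0.12. ENSRNOG00000056195 had 7361, 8271 and 8431 in control and 9805, 6987 and 9076 in the PWS lines, and the log2 fold change was 0.09 with a standard error of 0.13. These copies had 2.86% and 0.0357% unique reads, and RSEM gave them 1 shared value, of 3301 to 4822 in the 6 lines. That lay below the RSEM value of the set with ENSRNOG00000061528, at 9643 to 14612 per copy. The highest RSEM values among U2 copies were those of ENSRNOG00000054769, at 73763 to 113247, with overlap between the groups. The U2 copy ENSRNOG00000059976, with 72.1% unique reads, was highest in control line 2, with 1378 against 670 to 897 in the other 5 lines. That peak lay in its non-unique part, which was 698 in line 2 and 88.5 to 199 in the others. Its unique part, unlike that of the 5 copies above, was lower in each PWS line: it was 698, 680 and 647 in control and 621, 581 and 631 in PWS lines. From unique reads the log2 fold change was -0.14 with a standard error of 0.08 (limma, adjusted p = 0.538). ENSRNOG00000055074 had few reads, from 1.20 to 10.3 normalized counts, and a log2 fold change of -0.86 with a standard error of 0.70. With a mean of 7.12 in control and 3.50 in PWS lines, it passed the mean of 5 only through the control lines. Its difference is given as a description without a test.

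With each alignment counted, U1 counts were dominated by ENSRNOG00000055105, which held 56.1% to 80.1% of the class sum. It held a smaller part of the other sums. RSEM gave it 25093 to 47963, of class sums of 120352 to 231915, and unique reads 685 to 1399, of 2578 to 4998. In the all-alignment counts it had 14261, 23027 and 38487 normalized counts in the control and 43565, 31213 and 27232 in PWS lines. The groups overlapped, with the lowest value in control line 5-9, and the log2 fold change was 0.52 with a standard error of 0.33 (limma, adjusted p = 0.590). It was 0.16 without control line 5-9, 0.32 without PWS line 3 and 0.88 without control line 16. Unique reads were 3.50% of its reads. ENSRNOG00000055590 and ENSRNOG00000053146, with 1220 to 2427 and 1193 to 2326 normalized counts and almost no unique reads, were likewise lowest in control line 5-9 and highest in PWS line 3, and each had a log2 fold change of 0.31. Over the alternative settings given at the end, these fold changes ranged from 0.14 to 0.53 and from 0.15 to 0.51.

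The U1 copy with the most unique evidence after that, ENSRNOG00000061201, had 95.1% unique reads. It had 618, 620 and 609 normalized counts in the control and 566, 509 and 475 in PWS lines. The PWS lines lay below the control lines without overlap, with a log2 fold change of -0.26 with a standard error of 0.09, which did not pass adjustment (limma, adjusted p = 0.366). RSEM gave a log2 fold change of 0.21 for it, in a value shared with 3 other U1 copies.

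In other U1 copies 1 line stood apart from the other 5. ENSRNOG00000055311 had 9.49, 5.51 and 17.5 normalized counts in the 3 control lines, 23.5 and 15.5 in PWS lines 3 and 19-1, and 2417 in PWS line 19-4. Of its 2658 reads in line 19-4, 2446 were unique, whereas line 19-1, a subclone of the same line, had 7.16 normalized counts of unique reads. The log2 fold change of 3.20, with a standard error of 1.65, rested on line 19-4 (limma, adjusted p = 0.509), and without that line it was 0.90. RSEM did not show it: its value for this copy was 13939 in line 19-4 and 10628 to 20134 in the other 5 lines.

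Control line 5-9 stood apart in 3 further U1 copies. ENSRNOG00000060441 had 2367 normalized counts in line 5-9 and 454 to 592 in the other lines, with 0.813% unique reads over the 6 lines. ENSRNOG00000051920 had 1512 in line 5-9 and 525 to 656 in the others, and ENSRNOG00000054722 had 605 in line 5-9 and 123 to 185 in the others. The log2 fold change was -0.77 for ENSRNOG00000060441 and -0.68 for ENSRNOG00000054722, and -0.09 and -0.06 without line 5-9. Unique reads in line 5-9 were within the range of the other lines for ENSRNOG00000051920, at 249 normalized counts against 197 to 275. They were above it for ENSRNOG00000054722, at 173 against 89.5 to 142, and for ENSRNOG00000060441, at 31.3 against 0 to 5.96. RSEM placed these 3 copies in a set of 4 with the same value in every line, of which line 5-9 had the lowest value, 9513.

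A line was taken to stand apart when it was at least 2-fold above the next highest or below the next lowest, a rule set after the values were seen. This held for 9 of the 133 copies, against 2.97% of all tested genes, and the other 5 had a mean of 5.25 to 12.9 normalized counts. Among these 5, ENSRNOG00000054947 passed the mean of 5 only through the PWS lines, so the count is given as a description. The median SD of log2(normalized count + 1) over the 6 lines was 0.41 for the snRNA copies and 0.16 for all tested genes, which include many with higher counts.

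**Figure D5:**
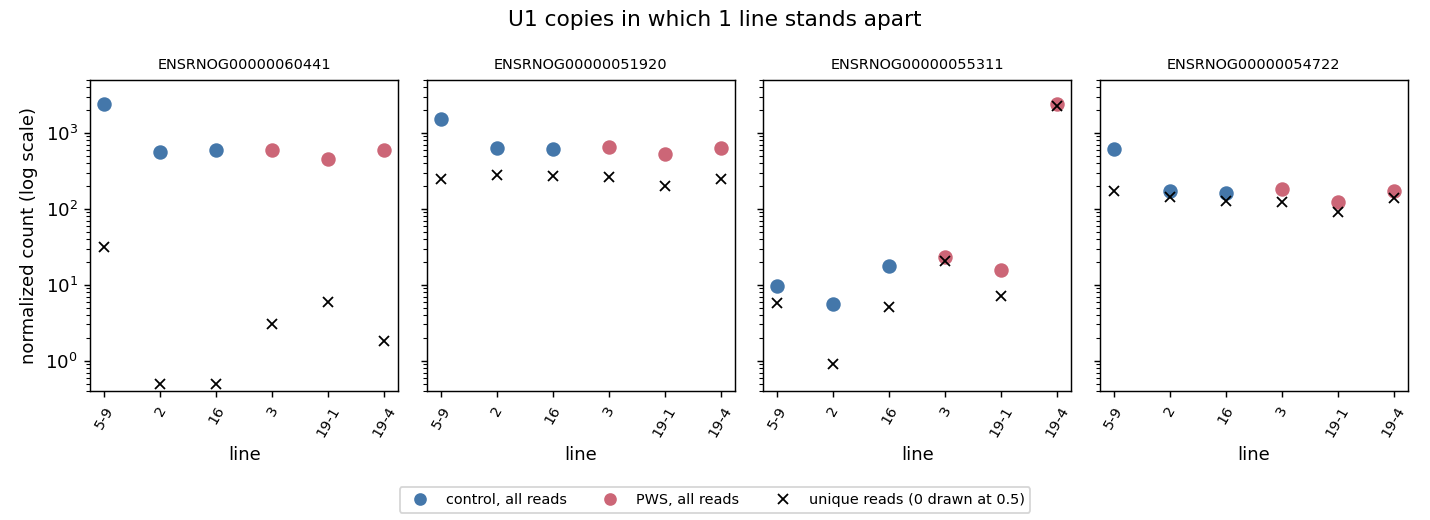
Normalized counts (log scale) of the 4 U1 copies with a mean of at least 50 in which 1 line stood apart, from all reads (circles; control blue, PWS red) and from unique reads (crosses; 0 drawn at 0.5). In ENSRNOG00000055311 the circle and the cross of line 19-4 lie together at 2417 and 2231, and in the other 3 copies the circle of line 5-9 is the highest. The cross of line 5-9 is also the highest in ENSRNOG00000060441, at 31.3, and in ENSRNOG00000054722, at 173, but not in ENSRNOG00000051920, at 249 against 197 to 275.

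The remaining U1 copies named for their fold changes had few reads. ENSRNOG00000054947 had 1.90, 2.75 and 2.05 normalized counts in the control and 14.3, 5.98 and 4.55 in the PWS lines, and its log2 fold change was 1.38. ENSRNOG00000055502 had 3.80, 2.75 and 4.11 in control and 7.15, 5.98 and 7.27 in PWS lines. These 2 copies and ENSRNOG00000057511 had control means of 2.24, 3.55 and 2.89 and passed the mean of 5 only through the PWS lines, so their differences are given as a description without a test. ENSRNOG00000057511 and ENSRNOG00000052823, with means of 6.29 and 9.37, overlapped and had log2 fold changes of 1.37 and 0.86. A count of 3 reads corresponds to 2.73 to 3.59 normalized counts, so these values rest on a few reads each.

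U4 pairs with U6 before the spliceosome is activated. Its 3 leading copies carried nearly all U4 counts, and the groups overlapped in each. ENSRNOG00000052742, with 74.1% unique reads, had 8485, 8614 and 13466 normalized counts in the control and 13201, 9737 and 11581 in the PWS lines, and the log2 fold change was 0.20 with a standard error of 0.19. It ranged from 0.08 to 0.42 over the alternative settings given at the end. ENSRNOG00000051966 had 5.41% unique reads and a log2 fold change of 0.28, and ENSRNOG00000056985 had 0 unique reads and a log2 fold change of 0.29. RSEM listed this last copy at 0 in the 3 control lines and at 2.07, 2.33 and 215 in PWS lines 3, 19-1 and 19-4, so that its RSEM value lay mostly in line 19-4 and is given without a test. ENSRNOG00000057067 had 257, 200 and 375 in control and 428, 372 and 385 in the PWS lines, and the log2 fold change was 0.55 with a standard error of 0.21 (limma, adjusted p = 0.386), with 0.797% unique reads. PWS line 19-1 lay just below control line 16 in this copy, so the groups overlapped.

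U6, which joins U2 in the catalytic center, had the most copies in the annotation, and its 38 tested copies had means of 5.10 to 69.0 normalized counts. ENSRNOG00000059498 had 62.7, 75.3 and 69.8 in control and 62.3, 70.6 and 73.6 in PWS lines, without any unique read. All reads of ENSRNOG00000060162 and ENSRNOG00000052058 were unique, and their log2 fold changes were -0.33 and 0.15, with standard errors of 0.22 and 0.30. ENSRNOG00000057845 had 10.4, 8.26 and 17.5 in control and 4.08, 7.17 and 5.46 in the PWS lines, and the log2 fold change was -0.96 with a standard error of 0.39 (limma, adjusted p = 0.425). Its groups did not overlap, at levels near that of a few reads.

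U5, which holds the exon ends, had some copies with mostly unique reads at high counts, but 5 of its 8 tested copies had under 50% unique reads. ENSRNOG00000058970, with 99.6% unique reads, had 2936, 2070 and 4066 normalized counts in the control and 3830, 3823 and 3815 in PWS lines. The PWS lines were close to each other, while the control lines ranged on both sides of them, and the log2 fold change was 0.39 with a standard error of 0.20 (limma, adjusted p = 0.516). Leaving out control line 2 gave 0.15, and leaving out control line 16 gave 0.63. ENSRNOG00000059280, with 68.6% unique reads, had 1662 to 2322 in control and 2061 to 2430 in the PWS lines, and its log2 fold change was 0.14. Over the alternative settings given at the end it ranged from 0.014 to 0.26. ENSRNOG00000052027, with 15.4% unique reads, had 1216 to 1684 in control and 1330 to 1649 in the PWS lines. Its log2 fold change was 0.09, and -0.20 from unique reads. ENSRNOG00000059272, with 97.1% unique reads and chosen after its values were seen, had 1319, 1777 and 1356 in control and 1371, 1141 and 1251 in the PWS lines. It was the 1 tested U5 copy of 8 with a fold change below 0, at -0.23 with a standard error of 0.13 (limma, adjusted p = 0.531), and its groups overlapped.

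For U12 the 2 tested copies had almost the same reads. ENSRNOG00000054193 had 1108, 1102 and 1455 normalized counts in the control and 1551, 1185 and 1383 in the PWS lines, and the log2 fold change was 0.17 with a standard error of 0.14. ENSRNOG00000055594 had 0 unique reads and a log2 fold change of 0.21 with a standard error of 0.15. The row Rnu11, the U11 snRNA gene whose RNA forms a particle with U12 in the minor spliceosome, has another name and was not a member: it had 1067, 1566 and 1096 normalized counts in the control and 1059, 908 and 926 in PWS lines, so that the PWS lines lay below the control lines, line 3 by a small margin.

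Genes for snRNA-binding proteins and snRNA maturation were read from the same fit. Of 122 tested rows in 10 lists, 1 was lower at an adjusted p under 0.05 and 0 were higher, against 0.25% and 0.00642% of all tested genes. The 1 was the deleted Sm gene Snrpn, with a log2 fold change of -10.56 (limma, adjusted p = 2.62e-05), a size that depends on the pseudocount since its PWS values are near 0, and edgeR and DESeq2 also called 1 lower and 0 higher. The median log2 fold change over the 122 rows was -0.03.

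The Sm core proteins form a ring on U1, U2, U4 and U5. Of 8 tested genes, the highest was Snrpd3, at a log2 fold change of 0.26 with an adjusted p of 0.433. Among the 7 LSm genes, whose products form the ring of U6, all had values between -0.22 for Lsm3 and -0.09 for Lsm2, and 0 passed. The 8 genes of U1 snRNP proteins ranged from -0.14 for Snrpa to 0.07 for Snrnp70. The 16 genes of U2 snRNP proteins ranged from -0.18 for Sf3a3 to 0.26 for Sf3a2, subunits of the SF3A complex that binds U2.

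The 15 tested genes of U4/U6 and U5 snRNP proteins ranged from -0.30 for Snrnp40 to 0.15 for Prpf8, the core protein of the catalytic center. The 9 minor spliceosome genes ranged from -0.09 for Rnpc3 to 0.16 for Snrnp35. Of 13 genes for snRNA transcription, Snapc3, a subunit of the snRNA promoter factor SNAPc, was the lowest at -0.23 and Ice1 the highest at 0.17. The 13 genes of Integrator, which cleaves the 3′ end of nascent snRNAs, ranged from -0.16 for Ints11 to 0.15 for Ints2.

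The 21 rows for snRNA export, Sm assembly and import ranged from -0.28 for Gemin7, a member of the SMN complex that loads the Sm ring, to 0.16 for Gemin5, its snRNA-binding subunit. The 12 genes for end processing, modification and U6 partners ranged from -0.28 for Toe1, an exonuclease that trims snRNA 3′ ends, to 0.15 for Mepce, the capping enzyme of 7SK RNA. None of these 9 lists beyond the Sm core had a member past the adjusted threshold in limma; unadjusted, 1 row was higher and 5 were lower in them, against 6% and 5.35% of all tested genes. Of the 116 tested rows of other small RNA families (7SK, U3, U7, U8, Y RNA, SRP, RNase MRP, RNase P, Vault, 5S and 5.8S rRNA), 0 passed in limma, edgeR or DESeq2, and 5 were higher and 5 lower unadjusted in limma, against the same 6% and 5.35%. These ranged from -1.10 for a 7SK copy (ENSRNOG00000054241) to 2.43 for a 5.8S rRNA copy (ENSRNOG00000056513).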

How the data were processed

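Total RNA of 6 INS-1 lines (3 control, 3 PWS) was rRNA-depleted and sequenced as stranded 75-bp pairs. Per the study's methods, the authors aligned trimmed reads with STAR to the Ensembl v98 rat genome with transgenes and custom features added, and counted genes with HTSeq, either counting a multi-mapped read at each feature (nonunique all) or leaving it out (nonunique none). The submitters' processing notes name STAR 2.7.0e, HTSeq 0.11.2 and RSEM 1.3.1, the last for the RSEM table. The values deposited by the authors are a signal, counts divided by a DESeq2 size factor per library; the columns of fold changes and p-values of the authors were not used. Of the values above 0 from HTSeq, 100% were whole multiples of the smallest in their column (relative tolerance 1e-06), which gave whole reads; 0 per-sample columns were left unassigned. Genes with a mean of at least 5 were tested with limma 3.58.1 (trended eBayes) on log2(value + 1) with Benjamini-Hochberg adjustment at 0.05, with edgeR 4.0.16 and DESeq2 1.42.0 on recovered reads as alternatives; the scripts were tested on simulated data. The members and the gene lists were chosen with earlier results of these data known. Named copies were those past 0.05, the 3 with the highest mean and the 2 with the most unique reads (at least 10) per class, the 5 lowest and 5 highest fold changes, and those with an unadjusted p under 0.05; in each list the lowest, the highest and those past 0.05 were named, and other copies were chosen after their values were seen. The unique and non-unique parts of a copy are its nonunique all value split by the share of its reads found under nonunique none. With 3 lines per group the smallest exact two-sided permutation p for 1 gene is 0.1. Sequences and positions of the copies were not used here.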

Additional observations from a re-analysis of the deposited data

How the results depend on the processing

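The lower U2 copy was called, as the 1 copy, with a pseudocount of 0.5 or 5, no filter on the mean, TMM scaling, edgeR and an adjusted p under 0.1, and DESeq2 called 3 copies lower. The count of lower copies was 0 with a mean of at least 50, without the variance trend, with unique reads, with RSEM and with lines 19-1 and 19-4 averaged, and from 0 to 0 without each line in turn. No copy was higher under any of these, and the list count stayed at 1 lower (Snrpn) and 0 higher. Over all genes, limma called 39 lower and 1 higher, DESeq2 122 and 106, the mean of at least 50 gave 8 and 1, unique reads 15 and 1, RSEM 11 and 1, and leaving out PWS line 3 gave 42 and 13. Same-numbered control and PWS lines had correlations of 0.0035, 0.047 and 0.0051 of their deviations from the group mean, so the numbers do not pair the lines; with the replicate block 0 copies were lower (the U2 copy had a limma adjusted p of 0.0698), with 35 lower and 1 higher over all genes. The median log2 fold change of the tested copies ranged from 0.03 to 0.18.

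The log2 ratio of the class sums ranged, without each line in turn, from 0.15 to 0.64 for U1, -0.14 to 0.08 for U2, 0.11 to 0.50 for U4, 0.07 to 0.31 for U5, -0.10 to 0.02 for U6 and 0.08 to 0.34 for U12; for U12 it was -0.13 with unique reads, and for U1 0.36 without the copies in which 1 line stood apart, chosen after seeing the data. The largest U1 value came without control line 16. Among 33 named copies, some changed sign. With unique reads the log2 fold change was 0.44 for U1 ENSRNOG00000060441, -0.24 for U2 ENSRNOG00000054184, -0.021 for U4 ENSRNOG00000051966, -0.20 for U5 ENSRNOG00000052027 and -0.12 for U12 ENSRNOG00000054193. With RSEM it was 0.35 for U1 ENSRNOG00000060441 and ENSRNOG00000054722, 0.21 for U1 ENSRNOG00000061201 and 0.17 for U2 ENSRNOG00000057887. Without 1 line in turn it ranged from -0.017 to 0.22 for U2 ENSRNOG00000054184, -0.0079 to 0.24 for U2 ENSRNOG00000056195, -0.013 to 0.24 for U5 ENSRNOG00000052027, -0.078 to 0.061 for U6 ENSRNOG00000059498 and -0.019 to 0.44 for U6 ENSRNOG00000052058. The cause was not tested. In 571 of 600 alternatives the named copies kept direction and side of the threshold, which all but 1 of the 33 had not passed in the main fit. That 1 copy, U2 ENSRNOG00000061528, kept its call in 7 alternatives and lost it in 12. A change of sign in at least 1 alternative was seen in 11 of the 33 copies. For the copies with means of 5 to 15, a few reads set the value, and depth limits what can be seen.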
